A study of Rattus norvegicus with 6 samples.

Results

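The 6 microRNAs (miRNAs) studied here are commonly used as references for quantification, and were followed in rat cardiac fibroblasts and in the exosomes these cells released. They were rno-miR-103-3p, rno-miR-191a-5p, rno-miR-423-5p, rno-miR-423-3p, rno-miR-425-5p and rno-miR-186-5p (the rat prefix rno is left out in most of what follows), chosen by name, and all 6 stood among the 728 listed mature miRNAs. All 6 passed the filter on low counts, as did 698 miRNAs in all. The question was whether they kept a constant share of the counts in cells and exosomes.

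The exosome group held 3 libraries from vesicles that Wistar rat cardiac fibroblasts shed into their medium, isolated by centrifugation, filtration and ultracentrifugation. The fibroblast group held 3 libraries from cardiac fibroblasts of the same strain. Cells came from newborn hearts (stage P1-P2, postnatal days 1 to 2) and were grown with 10% serum; for exosomes they spent 48 h in medium holding 1% serum from which exosomes had been removed. Total RNA was taken with Trizol and small RNA was sequenced. The labels give this culture step with all 6 samples and do not say whether the cells of the fibroblast libraries also went through it. They name no other treatment and no genetic change, and do not say that the libraries were separate cultures. All p-values therefore measure library-to-library spread, which may be technical.

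A miRNA is cut from a hairpin precursor, and 1 or both arms of the hairpin (named 5p and 3p) are loaded into the silencing complex, where the seed near the 5′ end pairs with messenger RNAs. A reference miRNA is an endogenous RNA against which others are expressed, on the premise that its own level is the same in all samples. Endogenous references of this kind are usually chosen in cells or tissues, while for vesicles and body fluids no single miRNA is generally accepted.

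The mature sequences are shown because they identify what was counted, and because no 2 of the matched members share a seed. In RefSeq (rat build GRCr8), 5 of the 6 members had a mature sequence under their name, with 5 different seeds; miR-423-3p is named only. Capitals mark the seed, bases 2 to 8 from the 5′ end, and miR-107-3p, a relative of miR-103-3p, is added for comparison.
miR-103-3p: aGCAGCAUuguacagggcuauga
miR-107-3p: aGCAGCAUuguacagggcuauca
miR-191a-5p: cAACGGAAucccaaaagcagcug
miR-423-5p: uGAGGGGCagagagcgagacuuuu
miR-425-5p: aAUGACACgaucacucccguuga
miR-186-5p: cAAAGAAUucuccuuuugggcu
The first pair shares its seed and differs by 1 base, G22C, counted from the 5′ end with the base of miR-103-3p first, so reads of the pair may be split between them in a way that is not given in the sources used here.

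Every hairpin lay inside a protein-coding gene of the RefSeq annotation. Mir191 (chr8:118142627-118142717, plus strand) and Mir425 (chr8:118143084-118143166, plus strand) lay 366 bases apart inside Dalrd3. Mir423 (chr10:62412272-62412350, minus strand) lay inside Nsrp1 and Mir186 (chr2:249241650-249241735, plus strand) inside Zranb2, which codes for an RNA-binding protein. miR-103-3p comes from hairpins inside Pank2 and Pank3, and miR-107-3p from one inside Pank1; these genes code for pantothenate kinases of coenzyme A synthesis.

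Total miRNA counts were 113129 to 120224 in exosome libraries and 2439559 to 12508651 in fibroblast libraries. Of these, miR-873-3p alone took 84.9% to 90.1% of the exosome counts and 0.391% to 2.37% of the fibroblast counts, which left 11825 to 18164 exosome counts for all other miRNAs. The share that 0 counts allow was at most 0.00250% to 0.00265% in exosome libraries and 2.40e-05% to 0.000123% in fibroblast libraries. These limits and the intervals given here cover counting error only, because PCR copies are not independent molecules. The 6 fibroblast and mesenchymal markers checked (miR-143-3p, miR-145-5p, both arms of miR-199a, miR-214-3p and miR-21-5p) held 0.114% to 0.861% of exosome counts and 34.1% to 38.5% of fibroblast counts. One exosome column carries no replicate number, and this library (unnumbered, below) stood apart with 1024 marker counts against 137 and 158 in exosome libraries 1 and 2. The 6 cardiomyocyte markers held 0.00252% to 0.0116% of exosome and 0.00791% to 0.0172% of fibroblast counts, and each was at 0 in at least 1 exosome library; of the 4 tested, 1, miR-499-5p, was called lower in exosomes (log2 -3.78, SE 1.25, edgeR adjusted p = 0.011). The 5 blood markers held 0.0134% to 0.0250% of exosome and 0.00787% to 0.0263% of fibroblast counts, with 1 of 5, miR-451-5p, called higher in exosomes. The liver and serum marker miR-122-5p held 0.000884% to 0.00665% of exosome and 0.000697% to 0.00349% of fibroblast counts. The 2 endothelial markers held 0.0840% to 0.0966% of exosome and 0.0100% to 0.0152% of fibroblast counts, with 1 of 2, miR-126a-3p, called higher in exosomes. Over all tested miRNAs edgeR called 11.3% higher and 18.6% lower. The part of these cell types in the results below was not tested.

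The 6 references did not move together. As a share of all miRNA counts, 5 of them were lower in every exosome library than in every fibroblast library, and miR-425-5p was higher in every exosome library. Together they made up 0.254% ± 0.0417 of exosome counts and 2.69% ± 0.151 of fibroblast counts (SD, n = 3 each; exact permutation p = 0.1, two-sided, the lowest value possible with 3 against 3). Over all 698 tested miRNAs, 24.1% lay wholly below and 6.02% wholly above the fibroblast libraries on this scale, and 30.1% lay apart in either direction. These are shares of sequenced miRNA within a library, so they give neither the number of vesicles nor the amount of RNA per vesicle.

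rno-miR-191a-5p, a widely expressed miRNA and the most abundant member in cells, had 22, 32 and 135 counts in exosome libraries 1, 2 and unnumbered, against 125223, 218040 and 42566 in fibroblast libraries 1, 2 and 4. These were 0.0183%, 0.0283% and 0.113% of exosome counts and 1.96%, 1.74% and 1.74% of fibroblast counts. The unnumbered exosome library held the most, and the fibroblast libraries lay close to each other. In fibroblasts miR-191a-5p ranked 8th to 12th of all miRNAs, whereas its exosome ranks were 167, 82 and 17.

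rno-miR-425-5p, from the neighbouring hairpin, had 135, 137 and 133 counts in exosome libraries 1, 2 and unnumbered, against 1991, 3753 and 879 in the fibroblast libraries in the order above. Its shares were 0.112%, 0.121% and 0.112% of exosome counts and 0.0312%, 0.0300% and 0.0360% of fibroblast counts. It was the least abundant member in cells and had the highest mean share of the members in exosomes. The 3 exosome counts lay within each other's 95% Poisson intervals (113 to 160 for the library with 135).

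Both arms of the miR-423 hairpin were counted. rno-miR-423-5p, which in humans is known as a circulating marker in heart failure, had 50, 33 and 30 exosome counts in the same library order and 18794, 25197 and 9979 fibroblast counts. These were 0.0416%, 0.0292% and 0.0252% of exosome counts and 0.295%, 0.201% and 0.409% of fibroblast counts. rno-miR-423-3p had 36, 23 and 15 exosome counts and 10683, 19401 and 3524 fibroblast counts. It took 0.0299%, 0.0203% and 0.0126% of exosome counts, against 0.168%, 0.155% and 0.144% of fibroblast counts. Exosome library 1 was highest for both arms, and in fibroblasts the 5p arm varied more between libraries than the 3p arm.

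rno-miR-103-3p, which with miR-107 has been linked to insulin sensitivity in mice, had 8, 28 and 27 exosome counts and 10736, 24027 and 3353 fibroblast counts. Its shares were 0.00665%, 0.0248% and 0.0227% of exosome counts and 0.168%, 0.192% and 0.137% of fibroblast counts, with exosome library 1 well below the other two. rno-miR-186-5p had 20, 12 and 19 exosome counts and 14310, 28330 and 4942 fibroblast counts. These were 0.0166%, 0.0106% and 0.0160% of exosome counts and 0.224%, 0.226% and 0.203% of fibroblast counts, and the groups did not overlap for either miRNA. With 8 counts, the 95% Poisson interval of miR-103-3p in exosome library 1 ran from 3.45 to 15.8, so counting error alone is large for these members in exosomes.

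By mean share, the order in exosomes was miR-425-5p, miR-191a-5p, miR-423-5p, miR-423-3p, miR-103-3p and miR-186-5p, and each neighbouring pair in this order overlapped between libraries. In fibroblasts the order was miR-191a-5p, miR-423-5p, miR-186-5p, miR-103-3p, miR-423-3p and miR-425-5p. There miR-423-5p overlapped with miR-186-5p, and miR-103-3p with miR-423-3p, while miR-186-5p and miR-103-3p did not overlap and miR-191a-5p and miR-425-5p stood clear at either end.

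**Figure D1:**
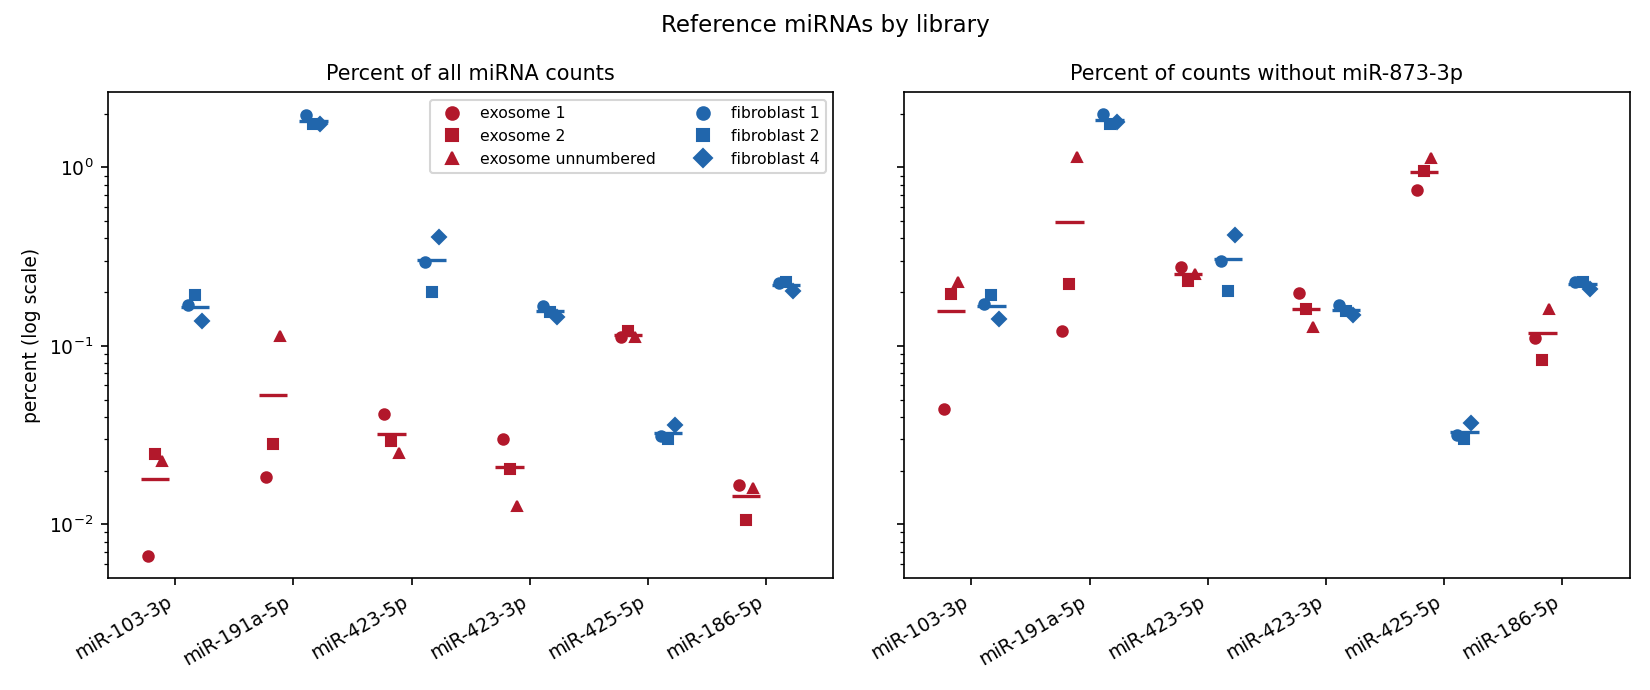
Share of each reference miRNA by library, on a log scale, as a percent of all miRNA counts (left panel) and of counts without miR-873-3p (right panel); red symbols are exosome and blue symbols fibroblast libraries, and bars are group means. In the left panel miR-425-5p is above and the other 5 below the fibroblast libraries; in the right panel miR-103-3p and both arms of miR-423 overlap between the groups.

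In the test across all miRNAs, 5 members were lower in exosomes and miR-425-5p was the 1 that was higher (from edgeR's quasi-likelihood test on TMM-scaled counts with Benjamini-Hochberg adjustment over 698 miRNAs, threshold 0.05; TMM sets the libraries on a common scale by a trimmed mean of ratios). Over all tested miRNAs 18.6% were called lower, 11.3% higher and 29.9% in either direction. On the TMM scale all 6 members also had groups that did not overlap, as did 39.4% of all tested. With total counts as library size the same 5 were called lower and miR-425-5p higher, where 17.3% of all tested were lower and 6.16% higher. The median log2 fold change of the 6 members was -2.84, beside -0.15 over all tested. Over the 116 miRNAs most abundant in fibroblasts, which held 5 of the 6, the median was -3.28. For miR-191a-5p the decrease was 17.2-fold (log2 -4.10, SE 1.38, edgeR adjusted p = 0.013; 95% interval of log2 -6.81 to -1.40), and without the unnumbered exosome library its log2 fold change was -6.52. miR-186-5p fell 10.7-fold (log2 -3.42, SE 0.94, edgeR adjusted p = 0.0019) and miR-423-5p 8.10-fold (log2 -3.02, SE 1.00, edgeR adjusted p = 0.011). miR-423-3p fell 6.30-fold (log2 -2.66, SE 0.86, edgeR adjusted p = 0.0093) and miR-103-3p 5.83-fold (log2 -2.54, SE 0.86, edgeR adjusted p = 0.014). For miR-425-5p the increase was 4.82-fold (log2 2.27, SE 0.83, edgeR adjusted p = 0.025), with a 95% interval of log2 0.63 to 3.90.

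The 5 lower members all belonged to the 116 miRNAs most abundant in fibroblasts, where 73.3% were called lower and 1.72% higher. A call of lower was thus the common one at that abundance. The ranks were taken from the same fibroblast values that enter the folds, which by itself favours lower calls there. miR-425-5p ranked 128th in fibroblasts, in the next 116 miRNAs, of which 26.7% were called lower and 10.3% higher. Without exosome library 1, without exosome library 2 or without fibroblast library 1, only miR-186-5p of the 5 was still called lower (edgeR adjusted p = 0.0355, 0.0496 and 0.0201), although the direction of all 6 was kept. miR-425-5p was not called without the unnumbered exosome library, fibroblast library 1 or fibroblast library 2 (edgeR adjusted p = 0.13, 0.21 and 0.18). Without the unnumbered exosome library the log2 fold change was -3.51 for miR-103-3p, -4.27 for miR-186-5p and 1.55 for miR-425-5p. Without fibroblast library 2 it was -3.19 for miR-103-3p, -4.97 for miR-191a-5p, -3.83 for miR-423-5p, -3.28 for miR-423-3p, 1.52 for miR-425-5p and -4.11 for miR-186-5p. Without fibroblast library 4, miR-423-5p was at -2.42. The other folds with 1 library left out stayed within 1.5 times of those with all libraries.

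In the authors' deposited table, which gives the ratio of mean normalized counts, miR-191a-5p and miR-186-5p had adjusted p-values of 0.00073 and 0.017. The authors' deposited table gave 0.084 for miR-103-3p, 0.16 for miR-423-3p, 0.27 for miR-423-5p and 1 for miR-425-5p. Its log2 values, turned to exosome over fibroblast, were -4.07 for miR-191a-5p, -3.33 for miR-186-5p and 2.31 for miR-425-5p.

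Over the 5 scalings compared, only miR-191a-5p kept the same call in each, and miR-425-5p lost its call in 1 of them. As a share of the counts left when miR-873-3p was taken out, miR-423-3p had 0.198%, 0.160% and 0.127% in exosome libraries 1, 2 and unnumbered, against 0.170%, 0.156% and 0.148% in fibroblast libraries 1, 2 and 4. miR-423-5p had 0.275%, 0.230% and 0.254% of these exosome counts and 0.298%, 0.202% and 0.419% of these fibroblast counts. The groups overlapped for both arms and for miR-103-3p, which had 0.0440%, 0.195% and 0.228% in exosomes against 0.170%, 0.193% and 0.141% in fibroblasts. miR-186-5p stayed lower in every exosome library, with 0.110%, 0.0837% and 0.161% in exosomes against 0.227%, 0.227% and 0.208% in fibroblasts. So did miR-191a-5p, with 0.121%, 0.223% and 1.14% in exosomes against 1.99%, 1.75% and 1.79% in fibroblasts. miR-425-5p moved further apart, to 0.743%, 0.956% and 1.12% in exosomes against 0.0316%, 0.0301% and 0.0369% in fibroblasts. On this scale 50.3% of all tested miRNAs lay wholly above and 7.31% wholly below the fibroblast libraries.

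With library sizes that leave out miR-873-3p, edgeR called miR-191a-5p lower (log2 -1.90, SE 0.73, adjusted p = 0.019) and miR-425-5p higher (log2 4.84, SE 0.79, adjusted p = 1.7e-08). The other 4 were not called, but their intervals were wide. That of miR-423-3p, at log2 0.04, ran from -1.28 to 1.37, that of miR-103-3p, at -0.12, from -1.46 to 1.21, that of miR-423-5p, at -0.28, from -1.59 to 1.04, and that of miR-186-5p, at -0.91, from -2.26 to 0.44. Of all tested miRNAs 54.0% were called higher and 5.16% lower with this scaling, and the median log2 fold change was 2.37. With all reads as library size, including those the deposited normalized table assigns to no miRNA, the same 5 were called lower and miR-425-5p missed the threshold (log2 1.25, SE 0.67, edgeR adjusted p = 0.14), where 28.1% of all tested were lower and 5.3% higher. Relative to the median of all tested miRNAs, 5 members lay below it and miR-425-5p above it in all 16 fits. A change of library size shifts all folds and their median nearly alike. The scalings could therefore hardly alter this position, and it is no check on them.

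**Figure D2:**
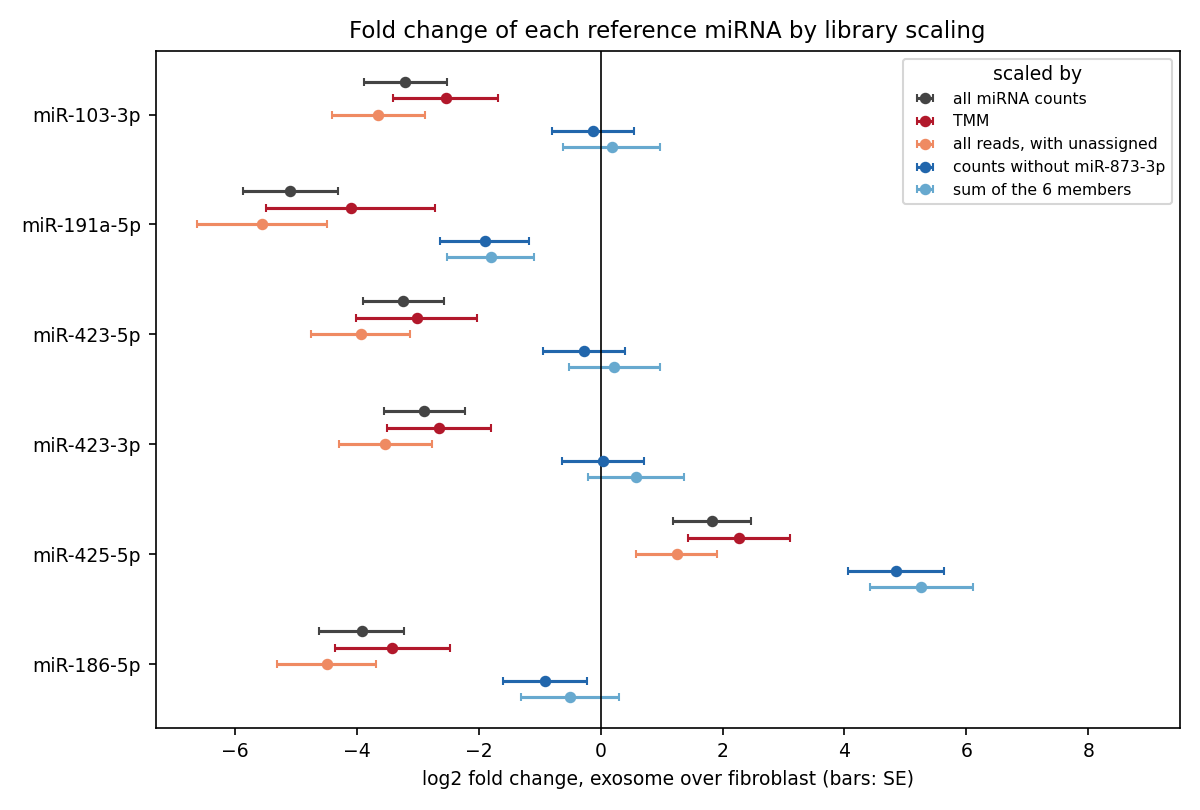
Log2 fold change (exosome over fibroblast) of each reference miRNA under 5 library scalings, with bars of 1 standard error. With counts that leave out miR-873-3p, or with the 6 members as library size, miR-103-3p and both arms of miR-423 lie within 1 standard error of 0. By contrast, miR-425-5p is above and miR-191a-5p below 0 under each scaling. The scaling by the 6 members contains these miRNAs, so it is no separate check on them.

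The spread across all 6 libraries, which is what a reference is chosen for, turned round with the denominator. Spread was taken as the range of log2(CPM + 1), CPM being the count scaled to a common library total. Scaled to all miRNA counts, miR-425-5p had the narrowest range of the members, 2.01, rank 55 of 698 tested miRNAs from the narrowest. The others had 3.72 (miR-423-3p, rank 353), 4.01 (miR-423-5p, 393), 4.40 (miR-186-5p, 433), 4.83 (miR-103-3p, 468) and 6.74 (miR-191a-5p, 639), with a median of 3.71 over all tested. On the TMM scale used for the test, miR-425-5p had 4.09 (rank 437) and miR-423-3p was the narrowest member at 3.33 (rank 373), with a median of 3.08. Scaled to counts without miR-873-3p, miR-423-3p had a range of 0.64, the narrowest of the 698. miR-423-5p followed at 1.05 (rank 7), miR-186-5p at 1.44 (17), miR-103-3p at 2.37 (64), miR-191a-5p at 4.04 (238) and miR-425-5p at 5.22 (397), with a median of 4.90. Among the 456 tested miRNAs with a mean of 50 CPM or more, the first 3 kept ranks 1, 7 and 17. These ranks are descriptions; scarce miRNAs have wider ranges from counting error alone.

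Within the fibroblast group miR-423-5p varied most. On the scale of all counts, the highest fibroblast library exceeded the lowest 1.12-fold for miR-186-5p, 1.13-fold for miR-191a-5p, 1.16-fold for miR-423-3p, 1.40-fold for miR-103-3p and 2.03-fold for miR-423-5p; the ratio of miR-425-5p lay between those of miR-423-3p and miR-103-3p. Within exosomes these ratios were 1.57 for miR-186-5p, 6.20 for miR-191a-5p, 2.38 for miR-423-3p, 3.72 for miR-103-3p, 1.65 for miR-423-5p and 1.08 for miR-425-5p. The large exosome ratio of miR-191a-5p came from the unnumbered library, and that of miR-103-3p from exosome library 1.

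**Figure D3:**
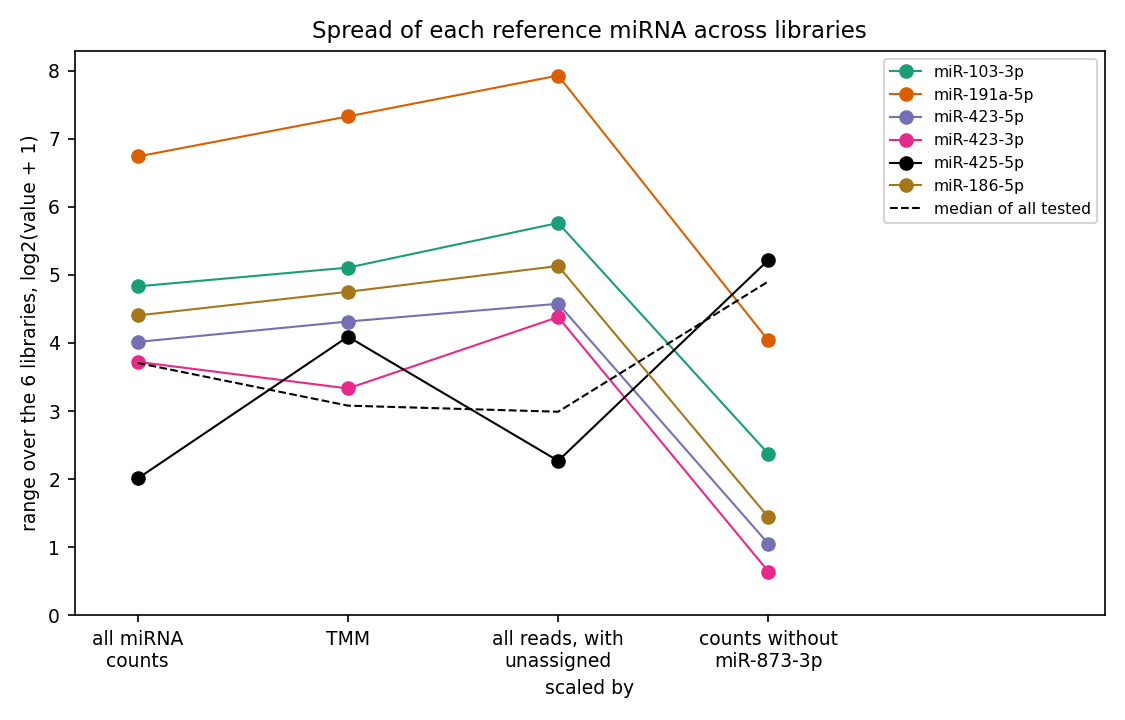
Range over the 6 libraries of log2(value + 1) for each reference miRNA under 4 scalings, with the median of all 698 tested miRNAs as a dashed line. miR-423-3p has 3.72 with all miRNA counts and 0.64 without miR-873-3p, while miR-425-5p goes the other way, with 2.01 and 5.22.

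Ratios between members within a library (0.5 added to each count) do not depend on any scaling between libraries. Of the 15 pairs, 9 had ratios that did not overlap between exosome and fibroblast libraries. All 5 pairs with miR-425-5p were among them, with group means 4.78 to 7.36 apart on the log2 scale. Of the other 10 pairs 4 were apart, and over these 10 the group means differed by 0.17 to 2.58. The exact two-sided permutation test cannot go below p = 0.1 at this size, and the lowest adjusted p over the 15 pairs was 0.17. As single miRNAs, 30.1% of all tested already lay apart by share of all counts. How often pairs of other miRNAs lie apart was not computed. Whether 9 of 15 is particular to these references was therefore not tested.

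The widest gap was between the neighbouring hairpins. The log2 ratio of miR-191a-5p over miR-425-5p was -2.59, -2.08 and 0.02 in exosome libraries 1, 2 and unnumbered, against 5.97, 5.86 and 5.60 in fibroblast libraries 1, 2 and 4. In cells miR-191a-5p therefore had far more counts than miR-425-5p, and in exosomes it had fewer or about as many. The means were -1.55 ± 1.38 in exosomes and 5.81 ± 0.194 in fibroblasts (SD, n = 3 each; exact permutation p = 0.1). With miR-191a-5p as the only library size, a scaling added after the data were seen that takes its count as exact, edgeR gave miR-425-5p a log2 fold change of 7.72 (SE 1.40, adjusted p = 2.0e-05 over all tested).

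The 2 arms of miR-423 kept their ratio within the spread between libraries. The log2 ratio of miR-423-5p over miR-423-3p was 0.47, 0.51 and 0.98 in exosomes and 0.81, 0.38 and 1.50 in fibroblasts, with means of 0.65 ± 0.282 in exosomes and 0.90 ± 0.567 in fibroblasts (SD, n = 3 each; exact permutation p = 0.7). The ratio of miR-103-3p over miR-423-3p also overlapped, at -2.10, 0.28 and 0.83 in exosomes against 0.01, 0.31 and -0.07 in fibroblasts. Its exosome values spread widely, with library 1 lowest. The ratio of miR-423-3p over miR-186-5p, at 0.83, 0.91 and -0.33 in exosomes, lay above -0.42, -0.55 and -0.49 in fibroblasts, by a narrow margin in the unnumbered library.

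**Figure D4:**
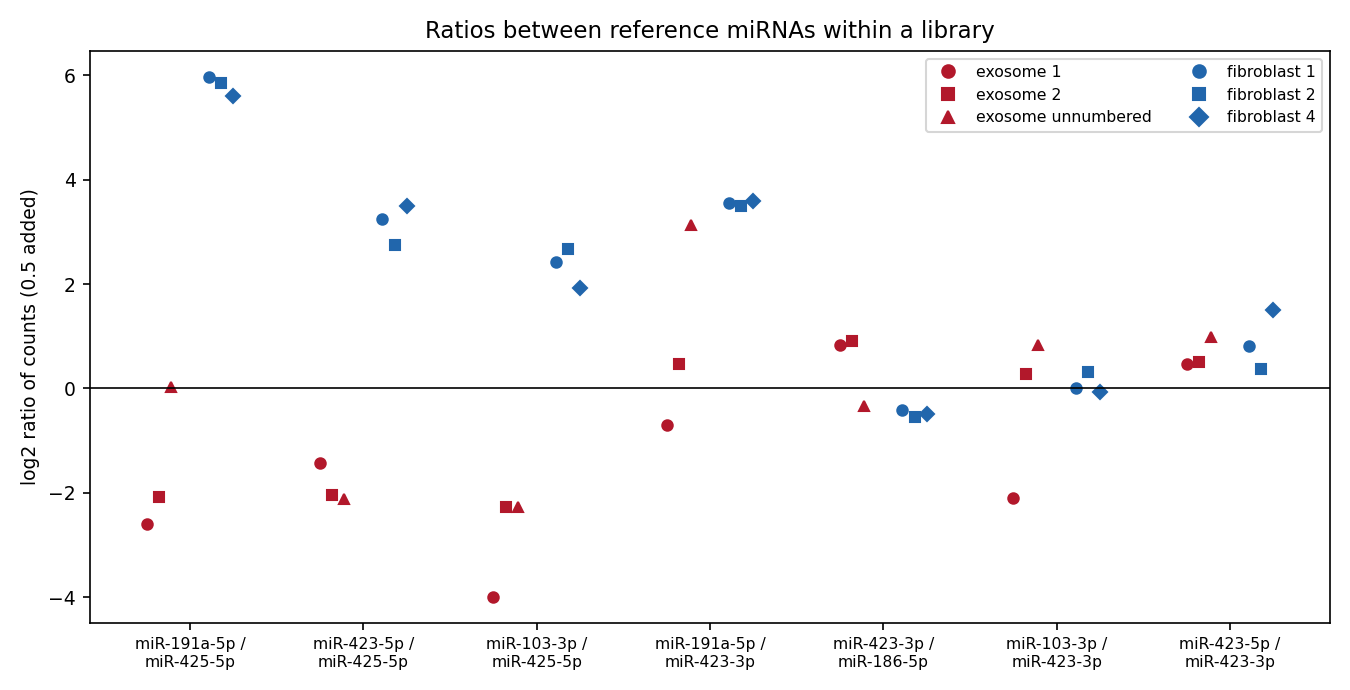
Log2 ratio of counts between pairs of reference miRNAs in each library, exosome libraries in red and fibroblast libraries in blue. The 3 pairs with miR-425-5p are far apart between the groups, while the 2 arms of miR-423 overlap.

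The opposite arms and near relatives of the members were not called. As shares of all counts, however, miR-425-3p (191, 203 and 42.0 CPM against 266, 307 and 222 CPM) lay wholly below the fibroblast libraries. So did miR-107-3p (8.32, 61.9 and 42.0 CPM against 111, 220 and 87.7 CPM), as did 24.1% of all tested. Among the 116 miRNAs most abundant in fibroblasts, where 73.3% were called lower, there were 0 of the tested relatives. Of 8 listed, 7 were tested and 0 were called by edgeR, 0 passed an unadjusted p of 0.05 and 0 were called by DESeq2, where edgeR called 29.9% of all tested. Their median log2 fold change was -0.71 beside -0.15 for all tested, and the untested miR-103-2-5p had 0 counts in every exosome library. miR-425-3p, the other arm of the miR-425 hairpin, had 23, 23 and 5 counts in exosomes, against 1694, 3835 and 541 in fibroblasts (log2 -0.72, SE 0.63, edgeR adjusted p = 0.44). The ratio of miR-425-5p over miR-425-3p was 5.77, 5.85 and 24.3 in exosomes against 1.18, 0.979 and 1.62 in fibroblasts, with no overlap (exact permutation p = 0.1). For miR-191a the 5p arm had 3.00, 3.82 and 54.2 counts per count of the 3p arm in exosomes, against 422, 167 and 504 in fibroblasts. miR-191a-3p itself had 7, 8 and 2 exosome counts against 296, 1308 and 84 in fibroblasts (log2 0.04, SE 0.66, edgeR adjusted p = 0.97). So the 5p arms of the neighbouring hairpins were called in opposite directions, while neither 3p arm was called. These calls are on the TMM scale. At such low exosome counts a missing call does not show that a 3p arm was unchanged. The ratio of miR-186-5p over miR-186-3p overlapped, at 8.20, 3.57 and 39.0 in exosomes against 75.5, 37.6 and 300 in fibroblasts. That of miR-425-3p over miR-191a-3p also overlapped, at 3.13, 2.76 and 2.20 against 5.72, 2.93 and 6.41. For miR-103-3p over miR-107-3p it was 5.67, 3.80 and 5.00 against 15.1, 8.74 and 15.6, with no overlap. The arms compared were chosen after their values were seen, and 0.5 was added to each count in these ratios. miR-107-3p, with 1, 7 and 5 exosome counts against 710, 2748 and 214 in fibroblasts, was not called either (log2 -1.34, SE 0.69, edgeR adjusted p = 0.13).

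Per 1000 counts of miR-873-3p there were 1.32, 1.39 and 1.24 of miR-425-5p in the exosome libraries, against 24.8, 76.6 and 15.2 in the fibroblast libraries. miR-873-3p itself had 102060, 98791 and 107169 exosome counts, so that near-equal counts in 3 libraries also give such a ratio. In fibroblast libraries 1, 2 and 4 it had 80123, 48963 and 57905 counts, although their totals were far larger. The cause of these patterns was not tested.

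A list of 14 other miRNAs often used as references was described beside the members. Of these, edgeR called 11 lower in exosomes, 0 higher and 3 neither way, with a median log2 fold change of -3.18 beside -0.15 for all tested. The 116 miRNAs most abundant in fibroblasts had a median of -3.28. Of all tested miRNAs 18.6% were called lower; 11 of the 14 were among the 116 most abundant in fibroblasts, where 73.3% were called lower, and 10 of these 11 were called. DESeq2 also called 11 lower and 0 higher, and 0 were higher at an unadjusted edgeR p under 0.05. miR-16-5p, often used in serum and vesicle studies, had 7, 17 and 36 exosome counts against 51948, 79409 and 10173 in fibroblasts (log2 -4.33, SE 1.17, edgeR adjusted p = 0.0016). The others called were let-7i-5p (log2 -5.00), miR-26a-5p (-4.54), miR-23a-3p (-4.46), miR-328a-3p (-4.30), let-7a-5p (-4.09), miR-24-3p (-3.23), miR-30e-5p (-3.14), miR-361-5p (-2.35), miR-25-3p (-2.31) and miR-93-5p (-1.97). The 3 with the smallest change were miR-345-5p (log2 -0.34, SE 0.77), miR-320-3p (log2 -0.70, SE 0.69), whose precursor is processed without the usual nuclear step, and miR-484 (log2 -0.73, SE 0.67). miR-484 had 24, 21 and 16 exosome counts against 2021, 10075 and 528 in fibroblasts. As shares of all counts, miR-484 and miR-320-3p still lay wholly below the fibroblast libraries, as did 24.1% of all tested. The groups overlapped for miR-345-5p, which had only 5, 3 and 2 exosome counts.

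By profile over the 6 libraries, the non-members most like the summed members were miR-192-5p, miR-30d-5p and miR-151-5p, with root mean square differences of 0.22, 0.26 and 0.30 in centred log2(CPM + 1). miR-192-5p had 11, 9 and 14 exosome counts against 8373, 17130 and 3313 in fibroblasts, and all 3 were called lower. The 5 most even of the 456 miRNAs with a mean of 50 CPM or more, scaled to all counts, were miR-205 (range 0.90), miR-1188-3p (1.19), miR-210-3p (1.22), miR-193-5p (1.42) and miR-106b-3p (1.52). miR-205 had 233, 283 and 151 CPM in exosomes against 162, 224 and 223 CPM in fibroblasts. None of the 6 references was among these 5 on this scale, whereas without miR-873-3p miR-423-3p ranked 1 of the 456. Some of these 5 rest on few exosome counts, as miR-1188-3p with 7, 6 and 4.

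Scaling to 1 member shifts every miRNA by that member's own change in each library, so the direction of the calls over all 698 tested miRNAs follows from the member's fold and is given as a description. Scaled to miR-425-5p alone, 9 miRNAs were called higher and 322 lower in exosomes, with a median log2 fold change of -2.45. Scaled to miR-191a-5p alone, from the neighbouring hairpin, 583 were called higher and 1 lower, with a median of 5.47. miR-423-5p gave 236 higher and 17 lower, miR-423-3p 368 and 34, miR-103-3p 399 and 10, and miR-186-5p 484 and 11. The sum of the 6 members gave 408 higher (58.5%) and 22 lower (3.15%), among them 1 member each way, miR-425-5p and miR-191a-5p, with a median of 2.88, against 79 higher and 130 lower with TMM. These single-reference scalings were added after the data were seen, and they take the reference count as exact, although it was as low as 8 in an exosome library.

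**Figure D5:**
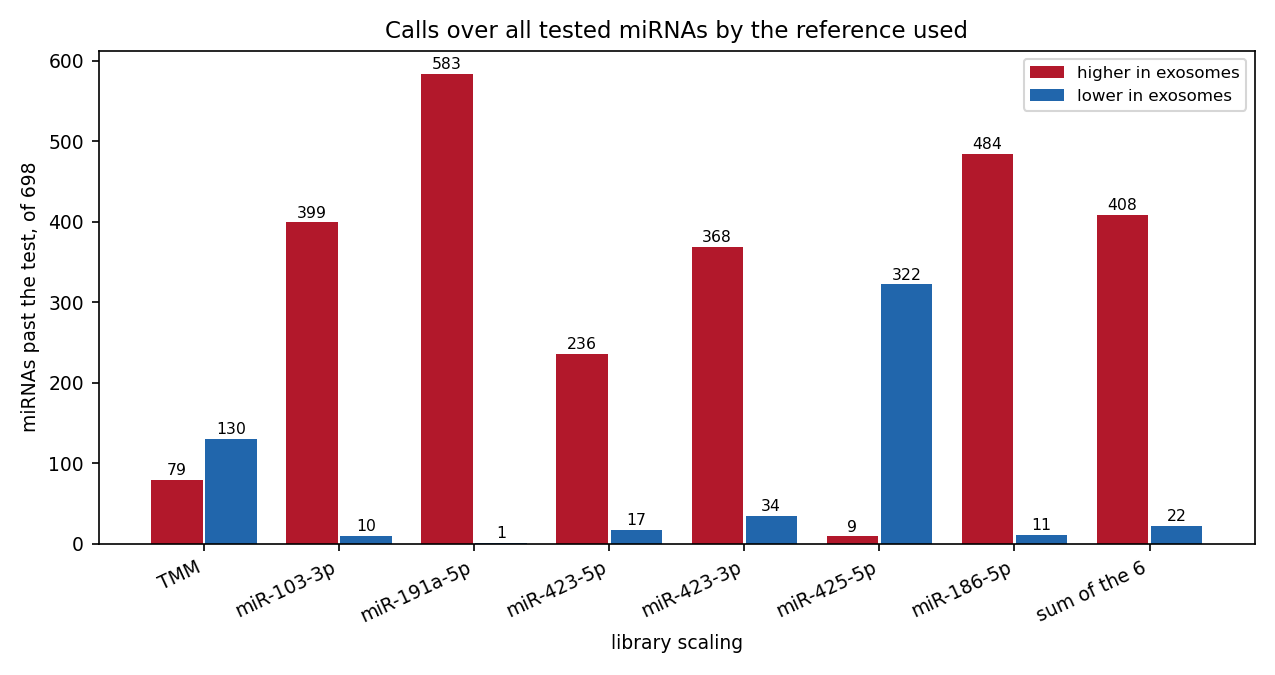
Number of the 698 tested miRNAs called higher (red) or lower (blue) in exosomes by edgeR when libraries are scaled by TMM, by 1 reference miRNA alone or by the sum of the 6. miR-425-5p gives 322 lower and 9 higher, and each of the other 5 alone gives 236 or more higher and 34 or fewer lower.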

How the data were processed

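Small RNA libraries of 3 exosome and 3 fibroblast samples were used. Per the submitters' processing notes, CASAVA 1.8.2, cutadapt 1.2.1, DESeq and rn5 were used. For the aligner, miRNA annotation and counting rule, nothing is stated. The deposited raw table gives counts of reads per mature miRNA. The deposited normalized table gives a signal close to these counts divided by a factor per library, but not exactly so for every miRNA. In exosome library 1 miR-423-3p took 0.0293% from it against 0.0299% from raw counts, and miR-425-5p 0.1131% against 0.1123%. It has 1 added row of reads assigned to no listed miRNA. These reads were estimated as that row times a factor per library. The factor was the smallest ratio of raw to normalized count among miRNAs above a count limit. So estimated, they were 77.2% to 84.3% of exosome and 63.1% to 82.3% of fibroblast reads. The authors' deposited comparison table gives means, a ratio, its log2 value and p-values, coded fibroblast over exosome; signs were turned for the text.

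Counts were tested with edgeR 4.0.16 (quasi-likelihood, TMM, R 4.3.3) with Benjamini-Hochberg adjustment and a threshold of 0.05. The filter (minimum count 10, minimum total 15) kept 698 of 728 miRNAs. DESeq2 1.42.0, other library sizes, no filter, thinning to 113129 counts and leaving out each library were alternatives. The fit was tested on simulated data with as many raised as lowered miRNAs, in which the most abundant miRNA was not changed. The simulation therefore did not cover 1 miRNA that takes most counts in exosomes but few in fibroblasts. Shares and ratios were tested by exact permutation (scipy 1.17.1). Count intervals are exact Poisson intervals at 95%; intervals of log2 fold changes are the estimate plus and minus a t quantile times its SE, the SE being the size of the log2 fold change over the root of F. The limit for a count of 0 is 3 counts. One exosome column carries no replicate number and was used as an unnumbered library of its group. The members, the lists and the rule for named miRNAs (members, their relatives, other references called or least changed, the 3 most alike and the 5 most even) were chosen with earlier results of these data known.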

Additional observations from a re-analysis of the deposited data

How the results depend on the processing

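With 3 libraries a group and exosome member counts of 8 to 137, counting error and the spread between libraries limit every fold here. All 6 members kept their direction in the fits that left out 1 library. Higher calls over all miRNAs, 79 with TMM, were 43 with total counts, 377 with library sizes without miR-873-3p, 408 with the sum of the 6 members and 37 with all reads; lower calls, 130 with TMM, were 36, 22 and 196 with the last 3 of these. DESeq2, no filter and thinning stayed within 1.5 times of both counts. Leaving out 1 library gave 31 to 86 higher and 81 to 137 lower. Members called lower, 5 with TMM, numbered 1 without miR-873-3p and 1 with the sum of the 6, both times miR-191a-5p, and 1 to 5 with 1 library left out. Members called higher, 1 with TMM, numbered 0 with all reads and 0 to 1 with 1 library left out. With the sum of the 6, log2 fold changes of miR-103-3p, miR-423-5p and miR-423-3p turned to 0.18, 0.22 and 0.58, and without miR-873-3p that of miR-423-3p turned to 0.042; a library size made of the members fixes their sum, and miR-425-5p and miR-191a-5p were then at 5.26 and -1.80. Scaling to a single member, chosen after the data were seen, gave for miR-103-3p, miR-191a-5p, miR-423-5p, miR-423-3p, miR-425-5p and miR-186-5p in turn 399, 583, 236, 368, 9 and 484 higher and 10, 1, 17, 34, 322 and 11 lower. The summed share differed by -2.44 percentage points (exosome minus fibroblast), by -0.60 without miR-873-3p, by -0.75 over all reads and by -2.51 to -2.36 with 1 library left out. The log2 ratio difference was -8.15 to -6.84 for miR-191a-5p over miR-425-5p and -0.51 to 0.06 for miR-423-5p over miR-423-3p with 1 library left out. A replicate block could use only numbers 1 and 2 and gave 100 higher and 135 lower. The same 4 libraries without it, a fit added after the data were seen, gave 106 and 143. Same-numbered libraries correlated at -0.098 and 0.17 in their deviations, and the other pairs at -0.26 to 0.21. These values cannot decide whether the numbers pair the libraries, and the main fit used no pairing. The count test on miRNA reads recovered from the normalized table was not run, and shares and ratios were taken from that table directly. Only the unassigned reads in the scaling by all reads were estimated from it. The causes of the other changes were not tested.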
